A study of Mus musculus with 16 samples.

Results

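A group of 10 autosomal mouse genes, Zfand6, St8sia4, Glrx, Calcrl, Trim21, Enpp2, Clec2d, Abi3bp, Ticam1 and Gramd1a, had promoter peaks in spermatogonia and, with few exceptions, none in meiotic and postmeiotic cells. They stand among 21337 genes with a transcription start site (TSS) in the authors' annotation, and they were picked because a promoter peak was present in young spermatogonia and absent in adult cells. That difference is therefore described below and not tested. A promoter peak is an ATAC-seq peak that names the gene and overlaps the 1 kb on either side of its TSS.

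ATAC-seq uses the transposase Tn5 to cut and tag accessible DNA, and a peak marks a stretch with more cuts than the background of its library. It was applied to testis cells of C57BL/6 mice, either Scml2-knockout (Scml2-KO) or wild type; SCML2 is a germline Polycomb-related protein. Adult mice gave pachytene spermatocytes (PS) and round spermatids (RS), and mice at postnatal day 7 gave Thy1+ spermatogonia (Thy1) and c-Kit+ spermatogonia (cKit). Each of the 8 groups had 2 libraries, so 8 adult libraries stand against 8 spermatogonial ones, and age and stage cannot be told apart between them. A reaction held 500000 cells for Thy1 and for cKit, 250000 for PS and 1000000 for RS. Between spermatogonia, PS and RS the cell input therefore cannot be told apart from stage. The labels describe each knockout by its name alone, without the allele. A promoter peak at Scml2 itself was present in 3 of 8 Scml2-KO and in 6 of 8 wild-type libraries, and no label places the deletion relative to it, so it does not check the genotype.

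In the testis, Thy1 marks a fraction with stem and progenitor spermatogonia and c-Kit the spermatogonia that have begun to differentiate. Differentiating cells then enter meiosis, spend a long pachytene stage recombining their chromosomes, and divide into haploid round spermatids. An accessible promoter is a usual feature of a gene that is, or can be, transcribed, although accessibility is not a measure of RNA. The 10 genes have varied roles. Trim21, Ticam1 and Clec2d belong to innate immunity, St8sia4, Calcrl, Enpp2 and Abi3bp act at the cell surface or outside the cell, and Zfand6, Glrx and Gramd1a work inside it.

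Whether sequence bears on the peaks was not tested, and for some of the genes promoter sequences are given. They come from RefSeq (build GRCm38.p6) and hold 250 bases before and 50 after the start, written 5′ to 3′ on the gene's strand. Zfand6 is shown at both of its RefSeq starts because only the downstream one lost its peak. St8sia4 is shown because it had the highest CpG ratio of the genes with a sequence near the authors' TSS. Trim21 and Clec2d are shown because their windows held an interferon regulatory factor (IRF) motif. It was searched as 2 copies of GAAA with 2 bases of any kind between them. Capitals mark matches, on either strand, to the CCAAT box (CCAAT), the GC box (GGGCGG), the CRE core (TGACGT) or the IRF motif. The 5 windows are these.
Zfand6 downstream start (chr7:84679347-84679646, minus strand): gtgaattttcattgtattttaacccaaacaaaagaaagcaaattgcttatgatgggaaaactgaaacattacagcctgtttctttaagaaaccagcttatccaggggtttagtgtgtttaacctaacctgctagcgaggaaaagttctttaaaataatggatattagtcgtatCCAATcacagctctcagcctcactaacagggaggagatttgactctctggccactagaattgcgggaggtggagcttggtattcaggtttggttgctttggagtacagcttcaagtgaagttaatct
Zfand6 upstream start (chr7:84689908-84690207, minus strand): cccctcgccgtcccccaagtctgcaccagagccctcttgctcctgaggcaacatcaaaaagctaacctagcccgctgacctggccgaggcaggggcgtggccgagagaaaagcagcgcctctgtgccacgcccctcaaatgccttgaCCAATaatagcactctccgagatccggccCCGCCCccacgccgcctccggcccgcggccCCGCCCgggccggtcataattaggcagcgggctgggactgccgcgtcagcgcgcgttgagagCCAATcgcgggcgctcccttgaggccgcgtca
St8sia4 (chr1:95667545-95667844, minus strand): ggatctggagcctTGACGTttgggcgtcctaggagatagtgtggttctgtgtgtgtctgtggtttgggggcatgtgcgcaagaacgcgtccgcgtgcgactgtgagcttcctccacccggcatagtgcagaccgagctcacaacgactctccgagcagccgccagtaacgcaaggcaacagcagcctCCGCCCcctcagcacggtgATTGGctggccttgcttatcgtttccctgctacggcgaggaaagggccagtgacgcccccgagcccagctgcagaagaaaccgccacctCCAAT
Trim21 (chr7:102565433-102565732, minus strand): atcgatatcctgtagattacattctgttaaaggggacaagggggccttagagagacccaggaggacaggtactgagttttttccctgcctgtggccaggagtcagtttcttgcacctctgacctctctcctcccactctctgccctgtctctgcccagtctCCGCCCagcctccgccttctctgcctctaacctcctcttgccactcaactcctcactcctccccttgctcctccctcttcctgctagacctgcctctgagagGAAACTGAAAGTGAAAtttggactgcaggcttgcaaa
Clec2d (chr6:129180365-129180664, plus strand): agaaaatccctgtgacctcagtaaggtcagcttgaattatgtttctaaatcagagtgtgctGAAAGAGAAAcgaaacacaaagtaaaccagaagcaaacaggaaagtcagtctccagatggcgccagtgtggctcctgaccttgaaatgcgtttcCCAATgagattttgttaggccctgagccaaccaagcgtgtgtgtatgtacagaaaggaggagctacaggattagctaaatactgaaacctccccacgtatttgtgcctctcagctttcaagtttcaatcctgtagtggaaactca

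The downstream Zfand6 window was 39.7% G and C, with a CpG ratio (observed over expected CpG) of 0.26 and 1 CCAAT box, 77 bases before the start. The upstream window was 68.0% G and C, with a CpG ratio of 0.89, 2 GC boxes and 2 CCAAT boxes. In Trim21 the 2 IRF matches overlap and lie 13 and 19 bases after the start, whereas the Clec2d match lies 189 bases before it. These positions count the first base of the match from the RefSeq start site. That start lies 45 bp from the authors' TSS for the downstream Zfand6 window and 13 bp for Trim21. Summit positions below count from the authors' TSS.

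Before the values, the libraries themselves differed. The deposited peak lists held 21878 to 164060 peaks in adult and 17813 to 135892 peaks in spermatogonial libraries, and replicate 1 had the longer list in 8 of 8 groups. Replicate numbers here are those of the sample titles, and the deposited lists carry another number for all 16 libraries, changed alike in both genotypes of each stage. The shortest list was that of cKit Scml2-KO replicate 2 and the longest that of RS Scml2-KO replicate 1. The number of reads is unknown here, so where a list shows no peak the signal did not reach the caller's threshold, which is not the same as closed chromatin. In bulk samples, fewer cells of a type and less accessibility per cell cannot be told apart. Fold enrichment is the authors' value for each peak over the background of its library. It serves here to describe and rank peaks within a list.

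The promoters of Zfand6, St8sia4, Glrx, Calcrl, Trim21, Enpp2, Clec2d and Abi3bp had peaks in 0 of 8 adult libraries and in each of the 8 spermatogonial libraries, so for these 8 genes the groups did not overlap. For Ticam1 and Gramd1a the count was 1 of 8 in adult cells, in both cases RS Scml2-KO replicate 2, and again 8 of 8 in spermatogonia. Across the group, 2 of 80 combinations of gene and adult library held a promoter peak. Of the 10501 genes with a promoter peak in all 8 spermatogonial libraries, 113 (1.08%) had none in the adult ones and 153 had one in a single adult library, while 8332 had one in all 8 adult libraries. The 113 became 292 without cKit Scml2-KO replicate 2, 260 with lists of equal length and 196 with fold enrichments of at least 5. The 113 are 2.88% of the 3919 genes that could be tested for the stage difference. Since the genes were picked on this pattern, nothing is read from their count against these shares.

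**Figure D1:**
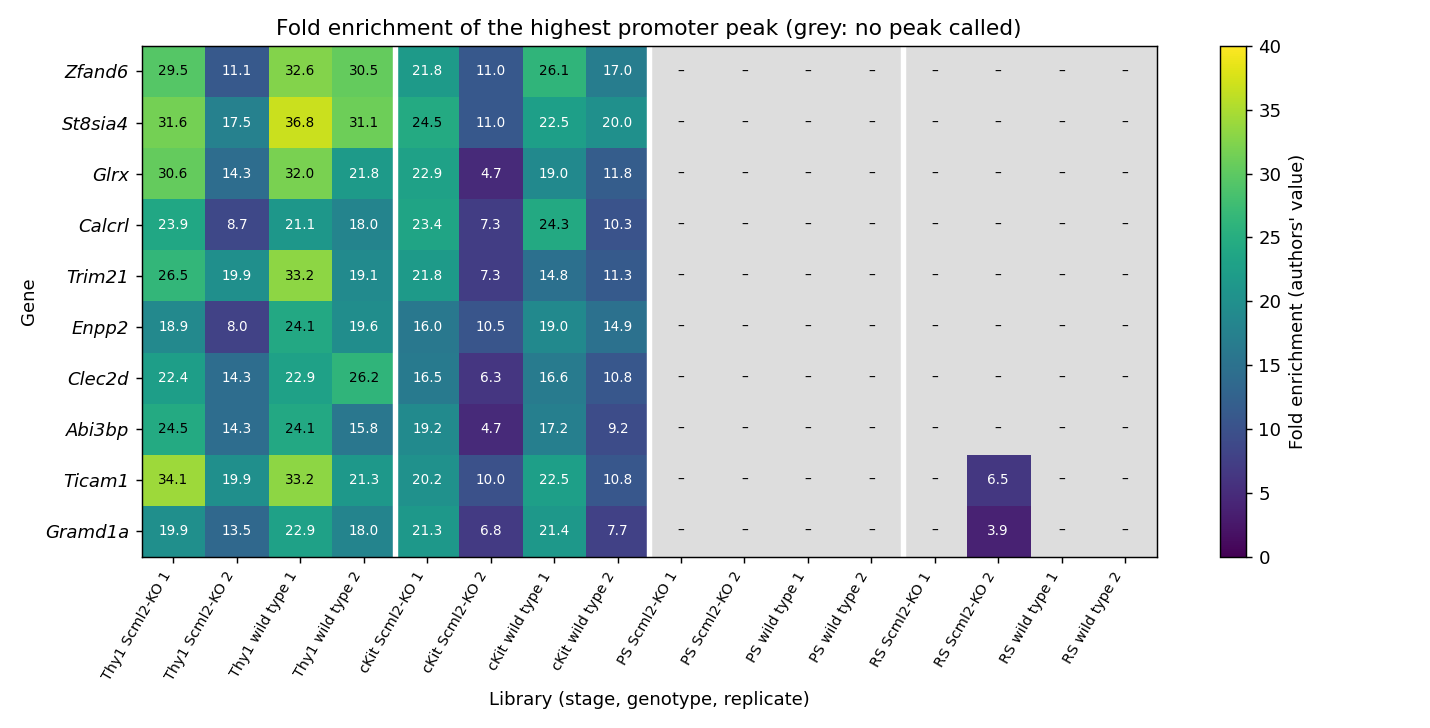
Fold enrichment (authors' value, colour and printed number) of the highest promoter peak of each of the 10 genes (rows) in each of the 16 libraries (columns: stage, genotype, replicate), with grey where no peak was called. The 8 Thy1 and cKit columns are filled for every gene, from 4.72 to 36.8, and the PS and RS columns hold only the Ticam1 and Gramd1a peaks of RS Scml2-KO replicate 2.

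**Figure D2:**
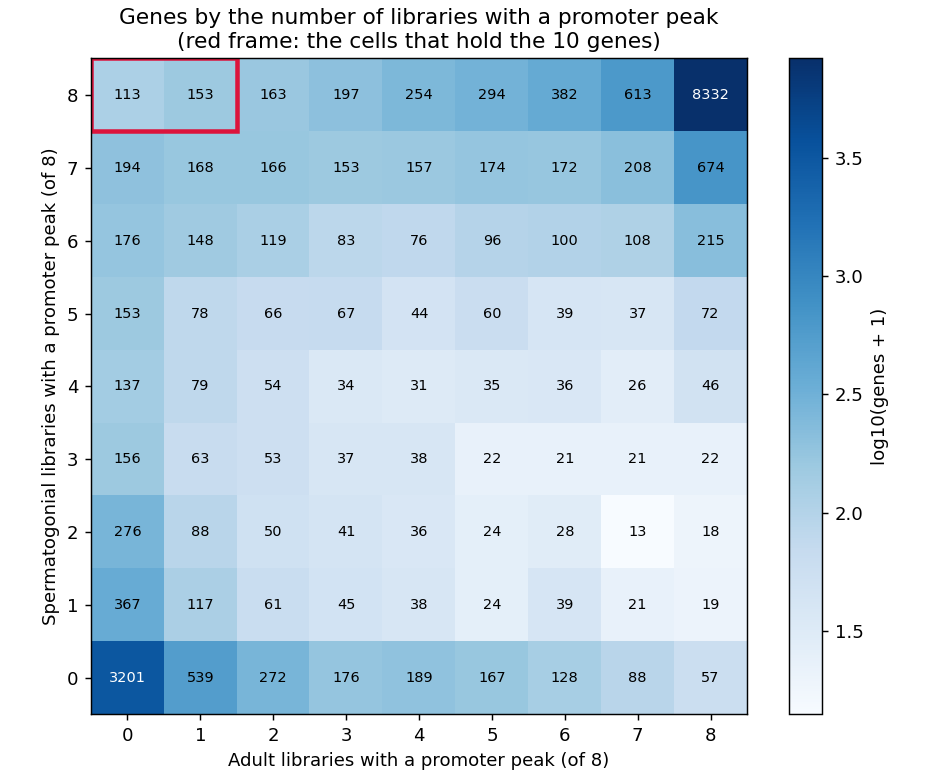
Number of genes for each combination of adult libraries (horizontal axis, of 8) and spermatogonial libraries (vertical axis, of 8) with a promoter peak, coloured by log10 of the number plus 1. The red frame marks the squares with 113 and 153 genes in which the 10 genes lie, and the opposite corner of the top row holds the 8332 genes open in all 16 libraries.

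Since the genes were picked for having promoter peaks in spermatogonia, the strength and length of these peaks are given as a description. Over the 80 combinations of gene and spermatogonial library, fold enrichment ran from 4.72 to 36.8 with a median of 19.4. Ranked by fold enrichment within its own list, the median promoter peak stood at the top 5.18% (range 0.979% to 70.1%), and 60 of 80 stood in the top 10%. The median length of the 80 promoter peaks was 847 bp, against 253 bp for all spermatogonial peaks. The latter include peaks outside promoters, and lengths were not compared with those of other promoter peaks. In cKit Scml2-KO replicate 2, the library with the fewest peaks, the median of the 10 genes was 7.34 and the median rank 31.7%.

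**Figure D3:**
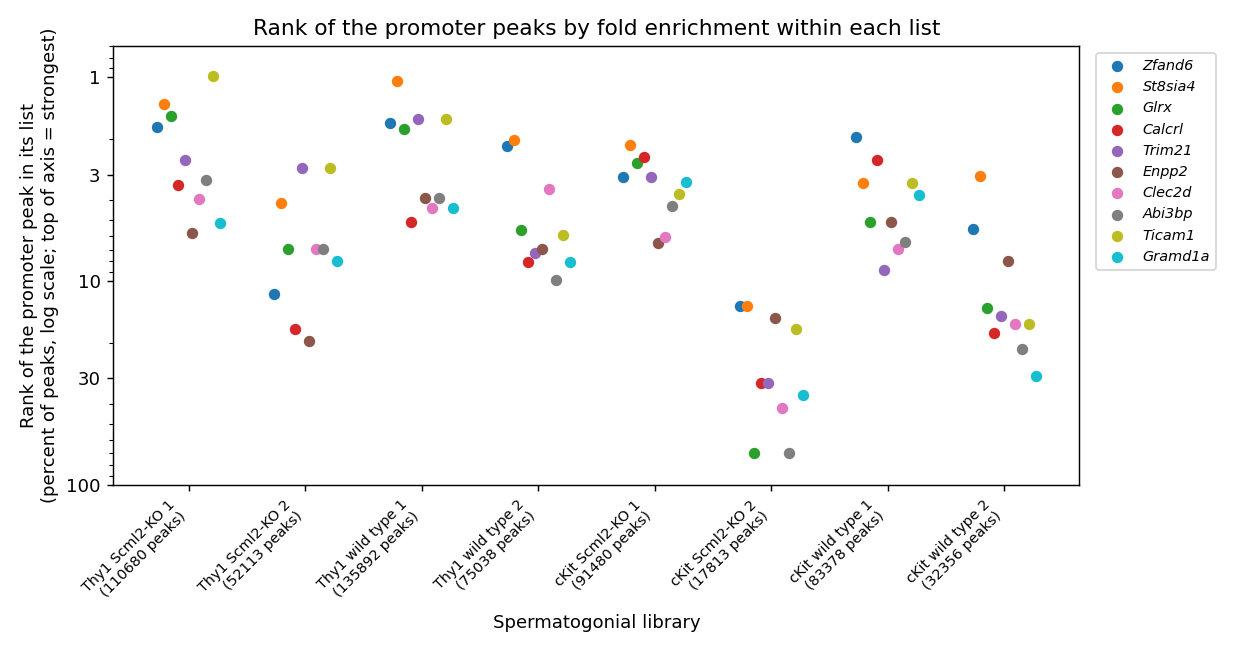
Rank of each promoter peak by fold enrichment within its own list (vertical axis, percent of peaks on a log scale, strongest at the top) in the 8 spermatogonial libraries (horizontal axis, with the number of peaks in each list); each colour is a gene. Most points lie above the 10% line except in the 2 shorter cKit lists, where the median ranks were 31.7% (Scml2-KO replicate 2) and 15.6% (wild-type replicate 2).

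Trim21, Ticam1 and Clec2d were the innate immune members. Trim21 (chromosome 7, minus strand, TSS 102565469) encodes a ubiquitin ligase that binds antibody Fc in the cytosol. No adult library had a peak at its promoter, and the nearest adult peak of any kind lay a median of 52131 bp from the TSS. Its fold enrichments in replicates 1 and 2 were 26.5 and 19.9 in Scml2-KO Thy1, 33.2 and 19.1 in wild-type Thy1, 21.8 and 7.34 in Scml2-KO cKit and 14.8 and 11.3 in wild-type cKit. Replicate 1 was the higher of each pair, as for every gene of the group but Clec2d. The median summit lay 10 bp upstream of the TSS. With 3 matches, 1 GC box and the 2 overlapping IRF matches, its window had a CpG ratio of 0.15, the lowest among the genes with a sequence.

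Ticam1 (chromosome 17, minus strand, TSS 56276767) encodes TRIF, the adaptor of the endosomal receptor TLR3 and of TLR4. The adult peak in RS Scml2-KO replicate 2 had a fold enrichment of 6.5 and stood at the top 32.4% of that list. In spermatogonia the values were 34.1 and 19.9 in Scml2-KO Thy1, 33.2 and 21.3 in wild-type Thy1, 20.2 and 9.96 in Scml2-KO cKit and 22.5 and 10.8 in wild-type cKit. The adult value lay below all 8 of them, and the median summit of the spermatogonial peaks lay 200 bp upstream of the TSS. Its window held 3 GC boxes, an E-box (CACGTG), the GATA letters AGATAAG and the ETS letters CCGGAAG.

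Clec2d (chromosome 6, plus strand, TSS 129180615) encodes a C-type lectin that is a ligand of the natural killer receptor family Klrb1. It had no adult promoter peak, and the nearest adult peak of any kind lay 57385 to 151117 bp away. Its spermatogonial values were 22.4 and 14.3 in Scml2-KO Thy1, 22.9 and 26.2 in wild-type Thy1, 16.5 and 6.29 in Scml2-KO cKit and 16.6 and 10.8 in wild-type cKit. The 5 other regions that carry its name were all open in Thy1 libraries only, at most 3 of 4.

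St8sia4, Calcrl, Enpp2 and Abi3bp act at or beyond the cell surface. St8sia4 (chromosome 1, minus strand, TSS 95667594) encodes a polysialyltransferase that adds polysialic acid to the adhesion molecule NCAM. It had no adult promoter peak, and the nearest adult peak lay a median of 340281 bp away. Its values were 31.6 and 17.5 in Scml2-KO Thy1, 36.8 and 31.1 in wild-type Thy1, 24.5 and 11 in Scml2-KO cKit and 22.5 and 20.0 in wild-type cKit. The Thy1 wild-type value of 36.8 was the highest of the 80, and its peaks, with a median of 1322 bp, were among the longest.

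Calcrl (chromosome 2, minus strand, TSS 84425266) encodes the receptor that, with a RAMP protein, binds calcitonin gene-related peptide or adrenomedullin. There was no adult promoter peak. The spermatogonial values were 23.9 and 8.74 in Scml2-KO Thy1, 21.1 and 18.0 in wild-type Thy1, 23.4 and 7.34 in Scml2-KO cKit and 24.3 and 10.3 in wild-type cKit. The cKit and Thy1 values overlapped, as for every gene of the group, and replicate 2 had the lower value of every pair.

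Enpp2 (chromosome 15, minus strand, TSS 54919961 and 54920146) encodes autotaxin, the secreted enzyme that makes lysophosphatidic acid (LPA). Adult libraries had no promoter peak. The spermatogonial values were 18.9 and 7.95 in Scml2-KO Thy1, 24.1 and 19.6 in wild-type Thy1, 16 and 10.5 in Scml2-KO cKit and 19.0 and 14.9 in wild-type cKit. Its peaks had a median length of 1098 bp, and replicate 1 was the higher of each pair.

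Abi3bp (chromosome 16, plus strand, TSS 56477846) encodes an extracellular matrix protein. No adult library had a promoter peak. Its values were 24.5 and 14.3 in Scml2-KO Thy1, 24.1 and 15.8 in wild-type Thy1, 19.2 and 4.72 in Scml2-KO cKit and 17.2 and 9.25 in wild-type cKit. The value of 4.72, shared with Glrx in the same library, was the lowest of the 80 and stood at rank 70.1%.

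Zfand6, Glrx and Gramd1a act within the cell. Zfand6 (chromosome 7, minus strand, TSS 84679351) encodes a protein with AN1 and A20 zinc fingers, domains known from ubiquitin binding. At this start, adult libraries had no peak. Spermatogonial values were 29.5 and 11.1 in Scml2-KO Thy1, 32.6 and 30.5 in wild-type Thy1, 21.8 and 11 in Scml2-KO cKit and 26.1 and 17.0 in wild-type cKit. The median peak was 500 bp long, the shortest of the group, and its median summit lay 110 bp upstream of the TSS.

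Zfand6 has a second RefSeq start, 10606 bp upstream of the one used by the authors' annotation, and this start had a peak at every stage. A peak there, which the authors assigned to 2610206C17Rik, was present in 8 of 8 adult libraries and 8 of 8 from spermatogonia. Its fold enrichment was 19.0 to 39.0 (median 30.9) in adult and 18.4 to 50.7 (median 35.0) in spermatogonial libraries, and the 2 ranges overlapped. By library, the adult values were 39.0 and 19.0 in Scml2-KO PS, 35.6 and 24.1 in wild-type PS, 36.7 and 27.3 in Scml2-KO RS and 31.0 and 30.8 in wild-type RS. So for Zfand6 the peak was absent in adult cells at the downstream start printed above, with a CpG ratio of 0.26, and present at the upstream one, with 0.89. The nearest adult peak to the downstream TSS lay 9061 to 10119 bp away.

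Glrx (chromosome 13, plus strand, TSS 75839886) encodes a glutaredoxin, which removes glutathione from protein thiols. Its promoter had no adult peak. The spermatogonial values were 30.6 and 14.3 in Scml2-KO Thy1, 32.0 and 21.8 in wild-type Thy1, 22.9 and 4.72 in Scml2-KO cKit and 19.0 and 11.8 in wild-type cKit. Unlike the promoter, an intergenic region 41.6 kb upstream (chr13:75797366-75799245) also had peaks in adult cells. It had a peak in 6 of 8 adult libraries, with fold enrichments of 3.9 to 14.8 (median 9.94), and in 8 of 8 spermatogonial libraries, with 10.8 to 38.6 (median 23.7). PS Scml2-KO replicate 2 and RS wild-type replicate 2 had no peak there.

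**Figure D4:**
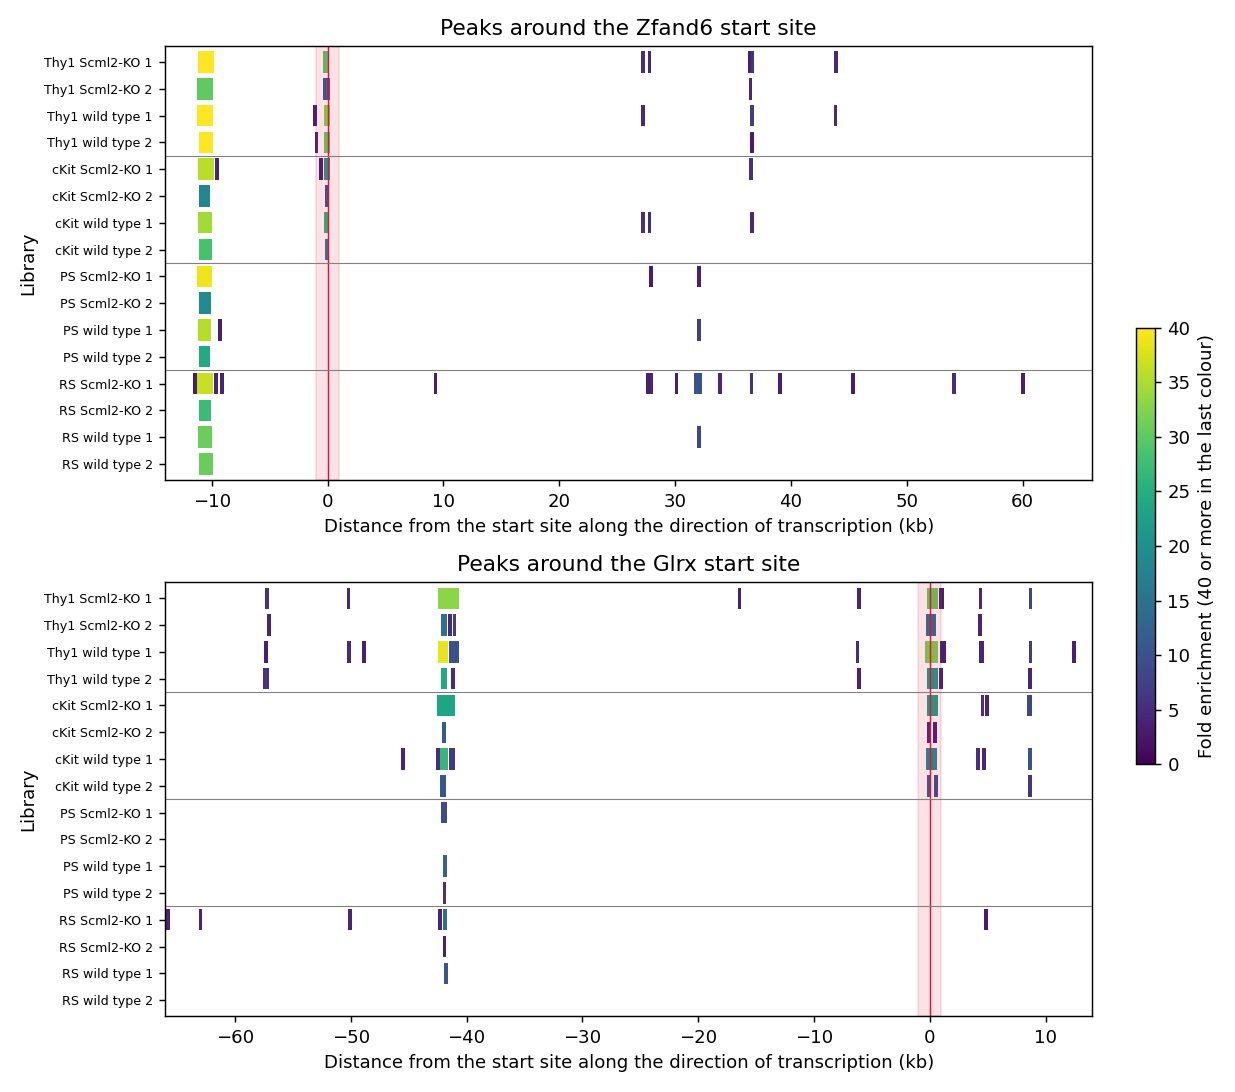
Peaks of the 16 libraries (rows) around the Zfand6 start (top) and the Glrx start (bottom), by distance from the start along the direction of transcription (horizontal axis, kb) and coloured by fold enrichment; the red band is the promoter window of 1 kb on either side. The band is empty in the PS and RS rows of both panels, while all 16 rows hold the Zfand6 peak about 10.6 kb upstream and 14 rows (6 adult and 8 spermatogonial) the Glrx peak 41.6 kb upstream.

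Gramd1a (chromosome 7, minus strand, TSS 31151050) encodes a sterol carrier of the endoplasmic reticulum that moves cholesterol from the plasma membrane. The adult peak in RS Scml2-KO replicate 2 had a fold enrichment of 3.9 and a rank of 81.8% in its list. The spermatogonial values were 19.9 and 13.5 in Scml2-KO Thy1, 22.9 and 18.0 in wild-type Thy1, 21.3 and 6.82 in Scml2-KO cKit and 21.4 and 7.71 in wild-type cKit, all above the adult value. Its summits lay farther from the TSS than those of the other genes, at a median of 719 bp upstream. RefSeq extends Gramd1a 4885 bp farther upstream, and that boundary had no peak in the 8 adult libraries and a peak in each of the 8 spermatogonial ones, with fold enrichments of 3.67 to 12.5. For Enpp2 the RefSeq gene extends 32643 bp farther upstream, and the peak at that end, which the authors assigned to Taf2, was present in 4 of 8 adult libraries and 7 of 8 from spermatogonia.

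The CpG content of most member promoters was near the middle of all promoters and below that of promoters open at every stage. Of the 10 genes, 8 (all but Enpp2 and Abi3bp) had an entry near the TSS in the promoter table of 32817 sequences. Their CpG ratio ran from 0.15 in Trim21 to 0.78 in St8sia4, with a median of 0.35, and 1 of 8 reached 0.6. Over all 32817 promoters the median was 0.38 (quartiles 0.18 and 0.75), and 2 of the 8 were at or above it. The other 76 genes with a peak in 0 adult and 8 spermatogonial libraries had a median of 0.39, with 17.1% at or above 0.6. The 6126 genes open in all 16 libraries had a median of 0.83, with 86.0% at or above 0.6, and the 2084 genes open in none had 0.15. This comparison of promoter classes is a description, since the classes follow the pattern on which the genes were picked.

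Motif letters were searched on both strands of the 300 bases, with overlapping matches counted. The GC box was found in 5 of 8 members (35.6% of all promoters), and CCAAT in 4 of 8 (37.4%). The IRF motif was found in 2 of 8, Trim21 and Clec2d (3.43% of all promoters). The AP-1 letters TGANTCA were found in 1 (Glrx, 98 bases before the start; 7.81%), as were the ETS letters CCGGAAG (8.86%), the E-box (7.15%) and the GATA letters AGATAAG (3.05%), all 3 in Ticam1, and TGACGT (St8sia4; 7.51%). None of the 8 members searched held TATAAA (13.6% of all promoters), the NRF1 core GCATGCG (3.57%) or the SOX letters ACAATGG (3.67%). These matches describe letters only.

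Outside the promoter windows, 199 merged regions carried the name of one of the genes in the authors' annotation. Of these, 62 had a peak in adult libraries only, 20 in both adult and spermatogonial libraries and 117 in spermatogonial libraries only. Thus 82 (41.2%) had a peak in some adult library, against 64.4% of all 341769 regions outside promoter windows. Of the 82, 43 rested on RS Scml2-KO replicate 1 alone, the longest list, and without that library 39 regions had an adult peak. Of the 199, 5 regions were open in 4 or more adult libraries and 40 in 4 or more spermatogonial ones. The shares of all regions that reach these numbers of libraries were not computed, so nothing is read from these counts.

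**Figure D5:**
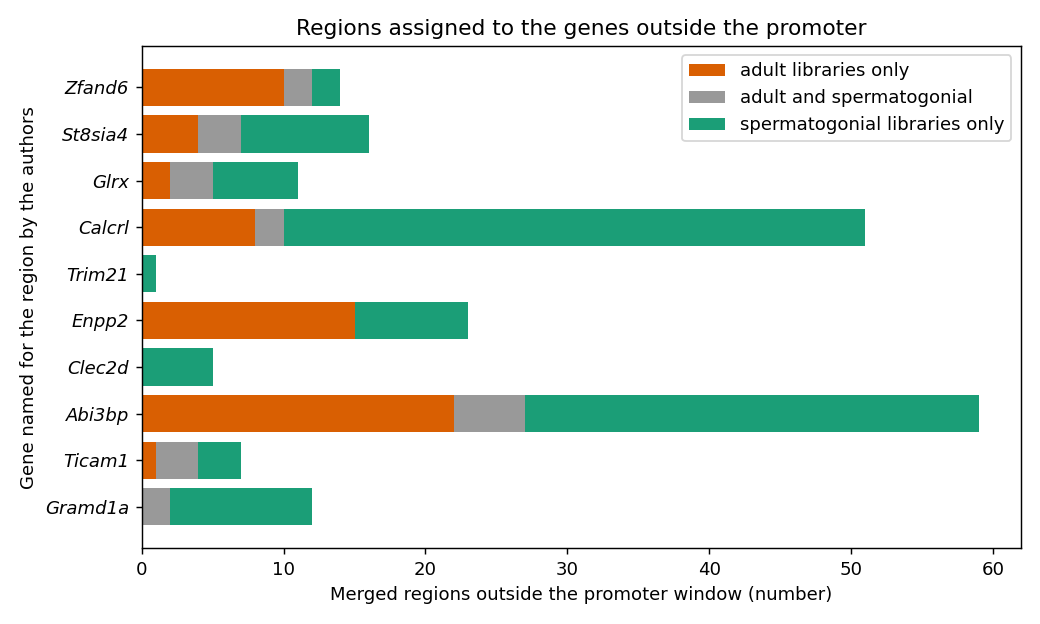
Number of merged regions outside the promoter window (horizontal axis) that the authors' annotation assigns to each gene (rows), split by whether peaks came from adult libraries only (orange), both (grey) or spermatogonial libraries only (green). Abi3bp (59) and Calcrl (51) had the most regions, Trim21 had 1, and Trim21 and Clec2d had no region with an adult peak.

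The regions open per library followed the stage. Per 10000 peaks of a list, PS libraries had 0.946 and 0.457 regions in Scml2-KO and 2.23 and 0.808 in wild type, and RS libraries had 3.6 and 1.11 in Scml2-KO and 4.01 and 1.93 in wild type. Thy1 libraries had 7.68 and 7.29 in Scml2-KO and 6.92 and 6.93 in wild type, and cKit libraries had 6.12 and 4.49 in Scml2-KO and 6.0 and 6.18 in wild type. The 8 adult values lay below the 8 spermatogonial ones, a contrast that the choice of genes touches and that is given as a description. Abi3bp (59) and Calcrl (51) supplied most of the regions, and taken alone only Gramd1a kept this order. In RS Scml2-KO replicate 1, Zfand6 had 0.731 and Enpp2 0.853 regions per 10000 peaks. Both exceeded every spermatogonial library, where the highest values were 0.361 for Zfand6 and 0.533 for Enpp2.

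The 5 regions open in 4 or more adult libraries belonged to 4 genes. Besides the Glrx region, an intronic Zfand6 region 32.0 kb downstream of the TSS (chr7:84647006-84647719) had a peak in 4 adult and 0 spermatogonial libraries, with fold enrichments of 3.64 in Scml2-KO PS, 7.23 in wild-type PS, 10.2 in Scml2-KO RS and 8.31 in wild-type RS. All 4 were replicates 1. An intergenic Calcrl region 188.7 kb beyond the TSS (chr2:84236395-84236793) showed the same 4 libraries, with 3.64 to 5.3. For Ticam1, a region 13.8 kb upstream (chr17:56289351-56291851), which overlaps the promoter window of another gene, was open in 8 of 8 adult libraries, with 3.9 to 16, and 8 of 8 spermatogonial libraries, with 7.34 to 23.5. The last was a Ticam1 region 16.3 kb upstream, described with the RS and PS comparison.

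Several regions with peaks in 7 or more spermatogonial libraries resembled their promoter, a choice made after their values were seen. All but 1 of those that follow had no adult peak in any library. The Glrx region 41.6 kb upstream and the Ticam1 region 13.8 kb upstream, given above, met the same rule but had adult peaks. The share of all regions with this pattern was not computed, so it is a description. In Abi3bp, an intronic region 129.3 kb into the gene (chr16:56606875-56607503) and an exonic one 132.9 kb in (chr16:56609989-56611563) were open in 8 of 8 spermatogonial libraries, with 4.2 to 16 and 5.24 to 18.9. The same held for an exonic Ticam1 region 7.4 kb downstream of the TSS (chr17:56269005-56269658; 4.77 to 16.3) and an intergenic Calcrl region 195.4 kb beyond its TSS (chr2:84229178-84230644; 4.63 to 11.2). Gramd1a had such regions 2.4 kb upstream (chr7:31153085-31153743; 3.18 to 16.6) and 4.9 kb upstream (chr7:31155571-31156280; 3.67 to 12.5), the second at the upstream boundary of the RefSeq gene. In St8sia4, a pair of intronic regions 1.4 kb and 2.2 kb downstream were open in 7 of 8 spermatogonial libraries, all but cKit Scml2-KO replicate 2, as was an intronic Enpp2 region 53.6 kb downstream. Calcrl also had a pair of intergenic regions 238.9 kb and 240.6 kb beyond its TSS, each open in 7 of 8 spermatogonial libraries, and the second had an adult peak as well, in PS wild-type replicate 1 (3.61).

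The choice of genes did not compare consecutive stages, but it did use promoter peaks in spermatogonia. All 4 cKit and all 4 Thy1 libraries held every promoter peak, which follows from that choice, so the promoters gave nothing to test. Among the 199 other regions, 8 were open in 4 of the 8 cKit and Thy1 libraries, so their unadjusted p could reach 0.05. By a two-sided Fisher exact test with Benjamini-Hochberg adjustment over all 14592 testable regions, 0 of these 8 passed 0.05 (0.0% of all testable regions passed). None of them could pass, since no region had an adjusted p below 0.218, and no conclusion is drawn from this. By the same test, 2 of the 8 had an unadjusted p of 0.0286 (adjusted p 0.218), the smallest that 4 against 4 libraries can give. Both were open in 0 of 4 cKit and 4 of 4 Thy1 libraries, a pattern that 13.1% of the 13752 comparable regions outside promoters showed. Leaving out Thy1 Scml2-KO replicate 2 turned the 2 regions into 12, and leaving out replicate 2 of Thy1 wild type, or replicate 1 of cKit wild type, into 4. The count was 1 when merging needed 100 bp of overlap, and 0 with stricter peaks or lists of equal length. The opposite pattern, 4 of 4 cKit and 0 of 4 Thy1, was seen in 0 member regions and in 0.0582% of the 13752. One lies 57.3 kb upstream of Glrx (chr13:75782316-75782937), with Thy1 fold enrichments of 6.11 and 3.97 in Scml2-KO and 3.62 and 6.0 in wild type. The other lies 431.2 kb beyond the Calcrl TSS (chr2:83993885-83994252), with 5.6 and 4.77 in Scml2-KO Thy1 and 6.63 and 6.54 in wild-type Thy1.

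Between RS and PS, 3 member regions could be tested, and 0 passed the adjusted threshold by the same Fisher exact test (0.0% of 8890 regions passed). One had an unadjusted p of 0.0286 (adjusted p 0.428). It was the Ticam1 region 16.3 kb upstream (chr17:56292839-56293204), open in 4 of 4 RS and 0 of 4 PS libraries, a pattern seen in 2.58% of 7877 comparable regions. The opposite pattern was seen in 0 member regions and in 3.87% of the 7877. Its RS fold enrichments were 3.03 and 4.33 in Scml2-KO and 3.88 and 3.76 in wild type, and it was also open in 3 of 4 Thy1 and 0 of 4 cKit libraries. The groups did not overlap between RS and PS, but the smallest p of 4 against 4 libraries leaves the adjusted value above the threshold.

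No difference between Scml2-KO and wild type passed the test at the members' regions outside promoters, and their promoters could not be tested. In each spermatogonial group, both Scml2-KO and both wild-type libraries held all 10 promoter peaks, which follows from the choice of genes. No member promoter could therefore be tested, and nothing is read from this about genotype. Over all genes, 0 of 817 testable promoters (0.0%) passed an exact conditional test that permutes genotype within stage. Of the 817, 14 (1.71%) had an unadjusted p of 0.05 or less by that test. Of the 199 other regions, 4 could be tested and 0 passed by the same exact test, with a lowest unadjusted p of 0.333 and none at 0.05 or less. Over all regions 0 of 8560 passed (0.0%), and 100 (1.17%) had an unadjusted p of 0.05 or less. Fold enrichments stood side by side between same-numbered lists of unequal length. Of the 10 genes, 3 were higher in Scml2-KO in Thy1 replicate 1 (medians 25.5 in Scml2-KO and 28.1 in wild type), 1 in Thy1 replicate 2 (14.3 and 20.5), 4 in cKit replicate 1 (21.6 and 20.2) and 0 in cKit replicate 2 (7.34 and 11.1). No label ties the replicates to different mice, so each p-value reflects how these libraries vary, and that variation may be technical.

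Genes related to the 10 by family or pathway were compared between adult and spermatogonial libraries as well. Of 72 listed genes, 71 had a start site, 21 could be tested for adult against spermatogonial libraries (open in 5 to 11 of 16), 23 were open in all 16 libraries and 5 in none. By a two-sided Fisher exact test with adjustment over all 3919 testable genes, 7 of the 21 were open in fewer adult libraries, against 24.7% of all genes tested, and 1 in more, against 8.45%. The 7 became 15 without cKit Scml2-KO replicate 2 and 12 without RS Scml2-KO replicate 1.

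The 7 came from 5 of the lists. Among the receptors for LPA, the product of Enpp2, Lpar6 was open in 0 of 8 adult libraries and 8 of 8 spermatogonial ones (adjusted p 0.00358, Fisher exact test), and the X-linked Lpar4 in 0 and 7 (adjusted p 0.00878). Lpar3 was open in 3 and 8 (adjusted p 0.0547, same test), while Lpar1 and Lpar2 were too often open to be tested. Lpar5, open in 1 adult and 0 spermatogonial libraries, was too rarely open to be tested. Tlr3, the receptor upstream of Ticam1, was open in 0 adult and 7 spermatogonial libraries (adjusted p 0.00878), against 3 and 7 for Tlr4 and for Ticam2 (adjusted p 0.188 each). Downstream, Traf3, Traf6, Tbk1 and Ripk1 were open in all 16 libraries.

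Calcr, the calcitonin receptor, and Ackr3, listed as Cxcr7, a receptor that also takes up adrenomedullin, were each open in 1 adult and 7 spermatogonial libraries (adjusted p 0.0305, Fisher exact test). Of the RAMP partners of Calcrl, Ramp1 and Ramp2 did not pass, with 2 and 7 each (adjusted p 0.0722 each, same test). Ramp3, open in 8 adult and 7 spermatogonial libraries, was too often open to be tested. St8sia1, a ganglioside sialyltransferase, and Trim30a, an interferon-inducible TRIM protein, also had 1 and 7 (adjusted p 0.0305). St8sia3 went the other way, with 6 adult and 0 spermatogonial libraries (adjusted p 0.0247), and it no longer passed with stricter peaks (a fold enrichment of at least 5, or likewise for −log10 q) or with lists of equal length. All 6 AN1 zinc finger relatives of Zfand6 and all 6 glutaredoxin and thioredoxin genes were open in 16 of 16 libraries.

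Genes with the same pattern were ranked by the number of libraries that match it and then by median fold enrichment in spermatogonia. Besides the 8 members, 105 genes matched in 16 of 16 libraries, 98 of them autosomal, with median fold enrichments of 4.78 to 19.3 (median 11.2). The 5 highest were Sh3bgrl (chromosome X, 19.3), 9530026P05Rik (chromosome 6, 17.6), Igbp1 (chromosome X, 17.6), Akr1cl (chromosome 1, 16.4) and Cyp4f13 (chromosome 17, 15.2). Abi3bp, the lowest of the 8, had 16.5. Just outside the pattern, with 1 adult library, Vcan had a median of 25.7 and Sdc2 of 25.6, both above every one of the 10 genes.

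Some marker promoters of other testis cells differed in the same contrast. By the Fisher exact test above, 4 of 8 testable Sertoli markers, 3 of 10 peritubular and fibroblast markers, 3 of 6 endothelial markers and 1 of 4 Leydig markers were open in fewer adult libraries, against 24.7% of all genes tested. Of 3 testable immune markers 0 passed, and 2 had an unadjusted p of 0.05 or less. Of 12 Sertoli markers, 1 to 7 were open per adult library (median 4) and 5 to 11 per spermatogonial library (median 10.5). Of 12 peritubular and fibroblast markers, 1 to 7 were open in adult libraries (median 4.5) and 5 to 12 in spermatogonial ones (median 11), and of 12 endothelial markers 2 to 7 (median 4) and 3 to 10 (median 8). Of 11 immune markers, 0 to 3 were open in adult and 0 to 4 in spermatogonial libraries, and of 9 Leydig markers 0 to 3 and 0 to 5. The Sertoli markers Rhox8 and Cst12 each had promoter peaks in 0 adult and 7 spermatogonial libraries. The endothelial marker Cdh5 was open in 1 adult and 8 spermatogonial libraries. In these lists 0 testable markers were called open in more adult libraries. Ptprc, Itgam, Pecam1, Tie1, Cyp11a1 and Hsd3b1 had no promoter peak in any of the 16 libraries. The part of somatic cells in the result was not tested.

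Of 12 spermatocyte markers, 11 to 12 were open per adult and 2 to 8 per spermatogonial library, and of 12 round spermatid markers 7 to 12 and 1 to 5. Prm1, Prm2, Tnp1 and Acr were at 0 in the spermatogonial libraries, and the spermatogonial genes Nanos2 and Nanos3 were at 0 in the adult ones. Of 12 stem and progenitor markers, 4 to 10 were open per adult library (median 6) and 4 to 11 per spermatogonial library (median 9.5), and of 7 markers of differentiating spermatogonia 2 to 6 and 1 to 7, with a median of 4.5 in both. By the same Fisher exact test, 4 of 5 testable spermatocyte markers, 7 of 9 testable round spermatid markers and 1 of 4 testable differentiating markers were open in more adult libraries. Of 6 testable stem and progenitor markers 0 passed, and 0 had an unadjusted p of 0.05 or less.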

How the data were processed

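ATAC-seq was measured in 16 libraries, 2 for each of 4 stages and 2 genotypes. Per the submitters' processing notes, Bowtie 1.1.1, MACS2 2.1.0.20140616 and build mm10 were used; the sources used here do not give the caller's options. The authors deposited 1 peak list per library, not pooled. Per the file headers, a list holds pileup (a signal, the coverage at the summit), fold enrichment (a ratio), −log10 p and −log10 q values and the peak length in bp, with the authors' gene and region names; the rule behind those names is not stated.

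Summits of 1 peak fill several lines and were collapsed. The 576 mitochondrial lines among 1431525 were dropped, which left 1111092 peaks. Start sites were those of the deposited transcripts (23596 sites of 21337 genes), and 1013 genes named only together with others took their start from RefSeq by position. Peaks of all lists sharing 1 bp or more formed 367750 regions. Presence of a peak was the measurement. Adult against spermatogonial libraries and consecutive stages were compared by two-sided Fisher exact tests (scipy 1.17.1, Python 3.11.15, pandas 2.3.3, numpy 2.4.6), and genotype by an exact conditional test within stages, all adjusted after Benjamini and Hochberg and called at 0.05. The tests were tested on simulated data. Figures were drawn with matplotlib 3.10.9. Alternatives were stricter peak thresholds, equal list lengths, assignment by position, a larger overlap, a replicate block and leaving out each library.

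The text names all 10 members, from the related genes those that passed the test with others of their list for comparison, and the 5 genes most like the members. Regions were named where open in 4 or more adult libraries, in 7 or more spermatogonial ones, or in all 4 Thy1 and 0 cKit or all 4 RS and 0 PS libraries, a choice made after their values were seen. The members and lists were chosen with earlier results of these data known. Groups come from the labels. The number of reads is unknown. Cells per reaction are known but differ between spermatogonia, PS and RS, so list length (17813 to 164060 peaks) is the main guide to precision.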

Additional observations from a re-analysis of the deposited data

Results flagged for a closer look

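A pair of signals lay outside the gene assignment on which the promoter counts rest. At the upstream RefSeq start of Zfand6, 8 of 8 adult libraries had a peak that the authors assigned to another gene, 2610206C17Rik. At the upstream boundary of the RefSeq gene Enpp2, 4 of 8 adult libraries had a peak that the authors assigned to Taf2, with fold enrichments of 4.13 to 7.61, against 7 of 8 spermatogonial libraries with 4.11 to 12.1. Both peaks are absent from the counts of the genes' own promoter peaks.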

How the results depend on the processing

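The count of members with a promoter peak in 0 adult and all spermatogonial libraries was 8, and ran from 8 to 10 when each library was left out in turn (10 without RS Scml2-KO replicate 2) and from 7 to 9 under the other alternatives. Genes open in fewer adult libraries numbered 967. The count was 967 to 1884 with 1 library left out (1884 without cKit Scml2-KO replicate 2) and 957 to 1584 under the other alternatives. Genes open in more adult libraries numbered 331, or 332 to 521 with 1 library left out (521 without the same library). Under the other alternatives they numbered 250 to 813 (813 with lists of equal length). Related genes lower in adult cells numbered 7, or 7 to 15 with 1 library left out, and 14 with a −log10 q of 5 or more or a fold enrichment of 5 or more. The 1 related gene higher in adult cells became 0 under both of these and with equal lists. Member regions with an adult peak numbered 82, or 39 to 82 with 1 library left out, 46 with assignment by position, 16 and 14 at a −log10 q and a fold enrichment of 5 or more, and 6 with equal lists. With replicate number as a block, 1584 genes were lower and 643 higher in adult cells, and 14 related genes were lower. Same-numbered libraries share only a number in the labels, and their deviations correlated at 0.24 (Thy1), 0.43 (cKit), 0.34 (PS) and 0.23 (RS). With the block no region could reach 0.05 for cKit against Thy1 or RS against PS, so it was not run there. Calls between genotypes and consecutive stages among the members stayed at 0 under every alternative run. Between consecutive stages no region could pass the adjusted threshold in the main run. The cause of these shifts was not tested. List length limits what could be seen, and a shorter list holds fewer weak peaks.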
